A study of Mus musculus with 16 samples.

Results

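A group of 37 genes for the uptake, storage and oxidation of fatty acids was followed in mouse muscle, out of 29730 genes in a table of raw read counts. The members were chosen by gene symbol from the known roles of their products and were found by matching Ensembl identifiers to GENCODE symbols on GRCm38. All 37 were in the table and all 37 passed the filter on low counts, and the lowest count of a member in any sample was 43. RNA was sequenced in 16 samples of the tibialis anterior, a fast muscle of the shin, from male C57BL/6N mice aged 7 weeks. The series asked what the antisense oligonucleotide ASO1, which lowers Dnm2, does in mice of the Bin1mck-/- line, which model a recessive form of centronuclear myopathy. The 4 groups of 4 samples were wild type with saline (WT_PBS), wild type with the oligonucleotide (WT_ASO), Bin1mck-/- with saline (KO_PBS) and Bin1mck-/- with the oligonucleotide (KO_ASO). The cells in which Bin1 is lost, the deleted part of the gene, and the dose and timing of the injections are, in the sources used here, not given. The labels number the samples of a group without saying that each is a separate mouse, so P values measure the spread between these samples, which may be technical.

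Total counts per sample ran from 27591900 to 40862854. Levels are CPM, read counts relative to library size, after TMM scaling (trimmed mean of M values). Genes with an edgeR adjusted P value under 0.05 are termed DEGs, differentially expressed genes. Bin1 was at 495 ± 40.6 CPM in WT_PBS and 44.9 ± 3.27 CPM in KO_PBS (SD, n = 4). Dnm2 was at 56.1 ± 5.51 CPM in WT_PBS and 25.6 ± 2.72 CPM in WT_ASO, and at 62.8 ± 3.63 CPM in KO_PBS and 24.8 ± 4.48 CPM in KO_ASO (SD, n = 4). The samples therefore matched their labels for both targeted genes. The 10 markers of skeletal muscle were expressed in every sample and summed to between 153980 and 287970 CPM.

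Muscle takes fatty acids from the blood after lipoprotein lipase releases them from circulating triglyceride, and CD36, FATP1 and FABP3 carry them across the membrane and through the cytosol. They are activated to acyl-CoA and either stored as triglyceride in lipid droplets or passed into mitochondria by the carnitine shuttle, whose gatekeeper CPT1 is inhibited by malonyl-CoA. Inside, the beta-oxidation spiral shortens the chain step by step and hands electrons to the respiratory chain through the electron transfer flavoprotein. The receptors PPARα and PPARδ, with the coactivator PGC-1α, drive many of these genes during fasting and endurance exercise.

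Levels per kilobase of exon (CPM per kilobase) are the scale on which members can be set against each other. Over all 16 samples the median member was at 38.6 CPM per kilobase. In WT_PBS Pdk4, a pyruvate dehydrogenase kinase, was highest at 290 ± 87.3 CPM per kilobase (SD, n = 4). It was followed by Acadvl, the very long chain acyl-CoA dehydrogenase, at 243 ± 45.5, and Fabp3, the heart-type fatty acid binding protein, at 200.4 ± 67.9 (SD, n = 4). Angptl4, a secreted inhibitor of lipoprotein lipase, was lowest at 0.955 ± 0.374 CPM per kilobase, below Cpt1a, the liver form of carnitine palmitoyltransferase 1, at 1.95 ± 0.499, and Ucp2, a carrier of the inner mitochondrial membrane, at 2.36 ± 0.347 (SD, n = 4). Neighbours in this order were seldom separate, since the WT_PBS samples of 34 of the 36 neighbouring pairs overlapped. Cpt1b, the muscle form of carnitine palmitoyltransferase 1, stood at only 3.73 ± 0.648 CPM per kilobase (SD, n = 4). In the annotation it shares 81.4% of its exon bases with the read-through gene Gm44502 on the same strand, and Etfb shares 58.3% with Gm45233 and Mir7051, so the levels of these 2 members carry that uncertainty. Fabp3, Crat, Acadvl, Etfdh, Lipe and Ucp3 lie partly opposite another gene that averaged 10 or more counts, in Ucp3 outside its exons, and whether the counting used the strand is not given in the labels or processing notes.

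**Figure D1:**
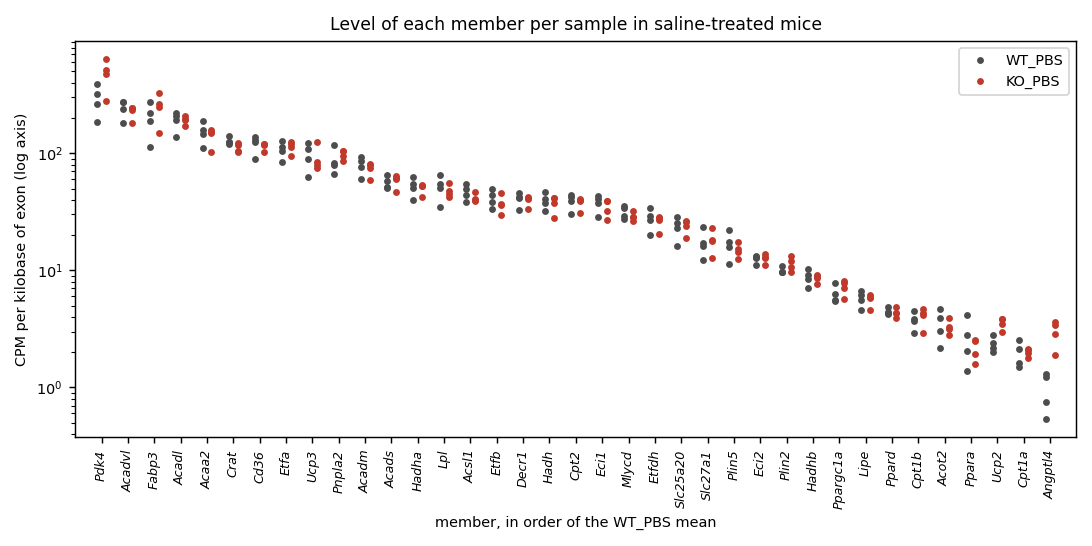
Level of each of the 37 members in CPM per kilobase of exon (log axis), with 1 point per sample for the 4 WT_PBS and the 4 KO_PBS samples, in order of the WT_PBS mean. Levels fall from Pdk4 to Angptl4, and the groups lie over each other for 35 of the members, Angptl4 and Ucp2 being the others.

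Few of the members differed between the genotypes under saline. Comparing KO_PBS with WT_PBS, 1 of the 37 members was a DEG, Angptl4, which rose, against 12.6% of all 14960 genes tested (7.43% higher and 5.12% lower). DESeq2 called the same member, against 16.9% of all genes, and limma-voom called 2, against 18.2%. The median log2 fold change (log2FC) of the members was -0.04, beside -0.01 for all genes, with 15 positive and 22 negative values from -0.29 for Ppara to 1.61 for Angptl4. Library totals in place of TMM moved all genes together, to a median of 0.14 for all genes and 0.11 for the members (32 positive and 5 negative values), so on both scales the median of the members lay slightly below that of all genes. The median size of the log2FC was 0.099 for members and 0.203 for all genes. The 95% interval of the fold change lay within 2-fold in either direction for 33 members, the exceptions being Fabp3, Angptl4, Pdk4 and Ucp2, and within 1.5-fold for 29, so for most members a difference of 2-fold lay outside the interval. Over all genes 75.4% had an interval within 2-fold. At an unadjusted P value under 0.05 there were 4 members, Angptl4, Ucp2, Crat and Pdk4, against 27.3% of all genes. Samples of KO_PBS and WT_PBS were fully separate for 2 members, Angptl4 and Ucp2, against 20.4% of all genes. Fibre markers moved in the same comparison. Of 8 slow fibre markers 6 were positive and 2 negative (list median 1.25), and 2 were called, Tnni1 and Atp2a2, both higher. Of 10 skeletal muscle markers 2 were positive and 8 negative (list median -0.40), and 3 were called, Tnnt3, Pvalb and Atp2a1, all lower. Of 10 endothelial markers 0 were called, with all 10 log2FC negative (median -0.17). Of 10 nuclear genes chosen for mitochondrial content 3 were positive and 7 negative (median -0.12), and 1 was called, Sdha, lower. The part of these markers in the values of all 37 members was not tested.

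**Figure D2:**
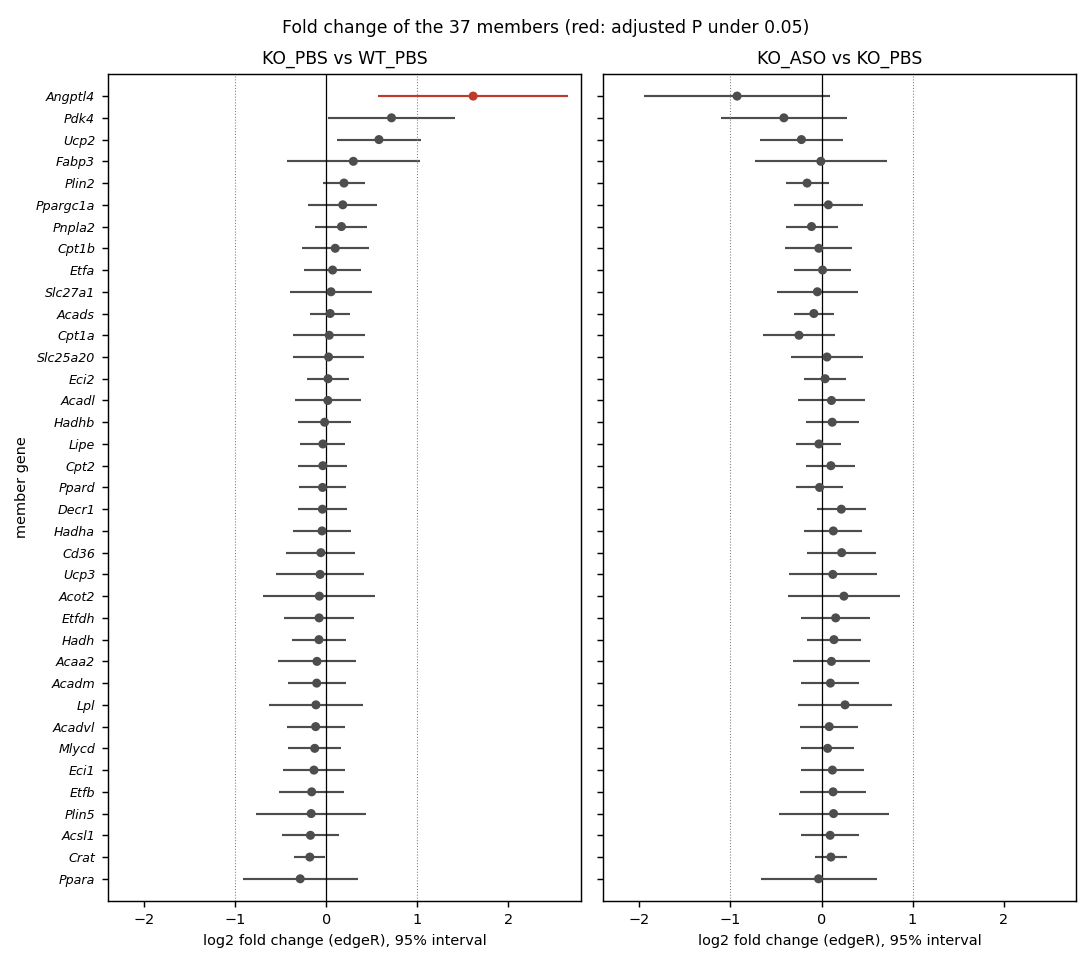
Log2 fold change of the 37 members with its 95% interval (horizontal line) from edgeR, for KO_PBS vs WT_PBS on the left and KO_ASO vs KO_PBS on the right, with dotted lines at 2-fold and red for an adjusted P value under 0.05. Most intervals cross 0 and stay inside the dotted lines, and Angptl4 at 1.61 on the left is the red one.

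Among the genes of uptake and delivery, Angptl4 was at 4.65, 1.90, 2.65 and 4.34 CPM in the WT_PBS samples. It was at 12.8, 12.01, 6.73 and 10.2 CPM in KO_PBS, so every KO_PBS sample was above every WT_PBS sample. The log2FC was 1.61 ± 0.49 (SE), a 3.06-fold rise, with an edgeR adjusted P value of 0.0429. This call was close to the threshold: over 23 alternative settings the log2FC ran from 1.43 to 1.80 and the adjusted P value from 0.00598 to 0.127, and it was called in 13 of them. Among other settings, it was lost without the filter on low counts (adjusted P = 0.127) and when any WT_PBS sample was left out (adjusted P = 0.0536, 0.114, 0.104 and 0.0727 without replicates 1 to 4), without KO_PBS replicates 1, 2 or 4 (0.114, 0.0838 and 0.0743) and without KO_ASO replicate 2 (0.0529). WT_ASO samples were at 2.62, 1.24, 6.32 and 5.53 CPM and KO_ASO samples at 1.96, 6.46, 9.45 and 4.15 CPM, and the KO_ASO samples spread over the ranges of both saline groups. The log2FC of Angptl4 between KO_ASO and KO_PBS was -0.93 ± 0.48 (SE; edgeR adjusted P = 0.334).

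Adipocytes also express Angptl4 and other members, and RNA from such cells was read from a list of 6 markers. Between KO_PBS and WT_PBS all 6 had a positive log2FC (median 1.46), 0 were DEGs and 1 had an unadjusted P value under 0.05. Their summed level ran from 8.75 to 14.4 CPM in WT_PBS, 8.30 to 58.6 in WT_ASO, 2.04 to 80.3 in KO_PBS and 3.15 to 27.7 in KO_ASO, with no marker at 0 in a whole group. The KO_PBS sample with the highest Angptl4, at 12.8 CPM, had the lowest adipocyte sum of all samples, at 2.04 CPM, and the KO_PBS sample with the highest adipocyte sum, at 80.3 CPM, had 10.2 CPM of Angptl4. All 15 macrophage markers were higher in KO_PBS, with a median log2FC of 1.80, and their sum was 70.1 ± 16.3 CPM in WT_PBS, 84.6 ± 31.6 in WT_ASO, 267 ± 141 in KO_PBS and 71.7 ± 15.6 in KO_ASO (SD, n = 4). The part of adipocyte and macrophage RNA in the members' values was not tested, and in bulk muscle fewer cells of a type cannot be told apart from less RNA per cell.

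The other genes of this role did not pass the test. Cd36, the fatty acid translocase, was at 432 ± 76.1 CPM in WT_PBS and 414 ± 30.2 in KO_PBS, and Lpl, the lipase itself, at 540 ± 134 and 499 ± 63.0 (SD, n = 4). Slc27a1, which encodes FATP1, was at 100.4 ± 27.1 and 104 ± 24.0 CPM. Fabp3 was at 228, 93.9, 182 and 156 CPM in WT_PBS and 270.1, 215, 204 and 122 CPM in KO_PBS (log2FC 0.30 ± 0.34 SE; edgeR adjusted P = 0.625). The groups overlapped, and the interval, from -0.43 to 1.03 on the log2 scale, was among the widest of the list. With a sample left out the log2FC ran from 0.10 without WT_PBS replicate 2 (0.13 without KO_PBS replicate 1) to 0.49 without WT_PBS replicate 1 (also 0.49 without KO_PBS replicate 4).

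The 7 genes of activation and the carnitine shuttle held no DEG between KO_PBS and WT_PBS, with log2FC from -0.18 to 0.10. Crat, carnitine acetyltransferase, which buffers acetyl-CoA as acetylcarnitine, was at 669, 644, 762 and 669 CPM in WT_PBS and 557, 639.7, 658 and 566 CPM in KO_PBS. The groups overlapped, and the log2FC was -0.18 ± 0.08 (SE; edgeR adjusted P = 0.159). Acsl1, the main long-chain acyl-CoA synthetase of muscle, was at 464, 404, 519.5 and 577 CPM in WT_PBS and 485, 425, 419.5 and 412 CPM in KO_PBS (log2FC -0.17 ± 0.15 SE; edgeR adjusted P = 0.494). Mlycd, which breaks down the CPT1 inhibitor malonyl-CoA, was at 85.8, 81.7, 100.4 and 106 CPM in WT_PBS and 78.8, 94.8, 84.4 and 84.4 CPM in KO_PBS (log2FC -0.13 ± 0.14 SE; edgeR adjusted P = 0.601). Of the transporters and transferases of the shuttle, Slc25a20, the carnitine-acylcarnitine translocase, had a log2FC of 0.03, Cpt2 -0.04, Cpt1a 0.03 and Cpt1b 0.10.

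The beta-oxidation spiral held no DEG. Its 8 genes had log2FC from -0.12 for Acadvl to 0.04 for Acads, with 6 negative values and a median of -0.06, and all 8 intervals lay within 1.5-fold. Summed over the spiral, the WT_PBS samples stood at 2804, 1837, 2626 and 2349 CPM and the KO_PBS samples at 2411, 2483, 2421 and 1880.5 CPM, so the groups overlapped throughout. Acadvl, Acadl, Acadm and Acads, the dehydrogenases for decreasing chain lengths, had log2FC of -0.12, 0.02, -0.10 and 0.04. The subunits of the trifunctional protein, Hadha and Hadhb, had -0.05 and -0.02, the short-chain hydroxyacyl dehydrogenase Hadh -0.08 and the thiolase Acaa2 -0.10. The auxiliary enzymes for unsaturated chains, Eci1, Eci2 and Decr1, had -0.14, 0.02 and -0.04, and the thioesterase Acot2 -0.08. Of the electron transfer flavoprotein, Etfa had 0.07, its oxidoreductase Etfdh -0.08, and Etfb, at 57.1, 38.8, 51.2 and 45.1 CPM in WT_PBS and 42.7, 52.9, 41.9 and 34.7 CPM in KO_PBS, -0.16 ± 0.17 (SE; edgeR adjusted P = 0.590). None of these 15 genes passed the test.

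These genes varied together between samples of the same group. Over the 22 genes of activation, shuttle, spiral, auxiliary enzymes and electron transfer flavoprotein, WT_PBS replicate 2 was the lowest sample of its group for all 22, at a median of 77.8% of the group mean, and for 36 of all 37 members. WT_ASO replicate 2 was lowest for 20 of the 22 (median 78.4%), KO_PBS replicate 4 for 18 (83.0%) and KO_ASO replicate 3 for 15 (90.4%). WT_ASO replicate 1 was highest for 18 of them, at 122%. The median coefficient of variation of a member in WT_PBS was 17.6%, from 6.26% for Plin2 to 46.6% for Ppara.

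**Figure D3:**
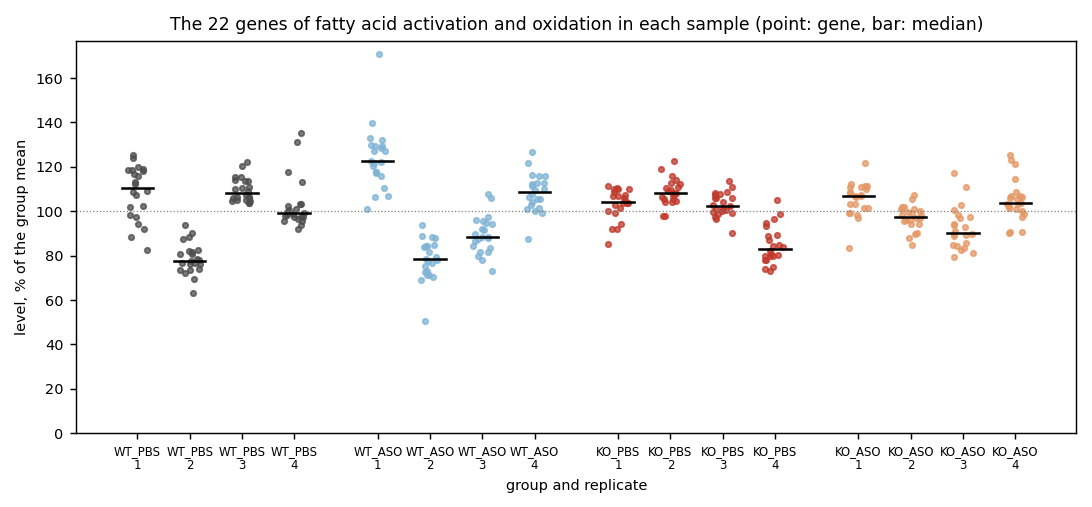
Level of the 22 genes of fatty acid activation and oxidation in each sample as a percentage of the mean of its group, with 1 point per gene and a bar at the median. All 22 points of WT_PBS replicate 2 lie below the dotted line at 100%, around a median of 77.8%, and those of KO_PBS replicate 4 lie around 83.0%.

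Marker sums are given beside these 4 low samples. The 10 nuclear genes chosen for mitochondrial content summed to 10179 CPM in WT_PBS replicate 2 and to between 10869 and 12208 CPM in the rest of its group, and to 8445 CPM in KO_PBS replicate 4 against 10337 to 11063 CPM. They were lowest in their groups also in WT_ASO replicate 2, at 10255 CPM, and in KO_ASO replicate 3, at 10244 CPM. The 8 slow fibre markers summed to 115 CPM in WT_PBS replicate 2, the lowest of its group, whose highest was 287 CPM, and to 222 CPM in KO_PBS replicate 4, again the lowest of its group, but in WT_ASO replicate 2 (132 CPM) and KO_ASO replicate 3 (236 CPM) they were above the lowest of the group (107 and 215 CPM). The 10 endothelial markers were lowest in all 4 samples, at 497 CPM in WT_PBS replicate 2, 397 CPM in WT_ASO replicate 2, 464 CPM in KO_PBS replicate 4 and 605 CPM in KO_ASO replicate 3. The skeletal muscle sum was highest of its group in WT_PBS replicate 2, at 245550 CPM, and in none of the other 3. The macrophage sum was highest of its group in KO_PBS replicate 4, at 471 CPM, and lowest in WT_ASO replicate 2, at 56.9 CPM. It lay between in WT_PBS replicate 2 (81.8 CPM) and KO_ASO replicate 3 (72.5 CPM). The adipocyte sum was highest of its group in KO_PBS replicate 4 (80.3 CPM) and WT_PBS replicate 2 (14.4 CPM). It was lowest in WT_ASO replicate 2 (8.30 CPM) and KO_ASO replicate 3 (3.15 CPM). The part of fibre type, mitochondrial content, vessels and other cells in the members' spread was not tested.

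Of the genes of storage and lipolysis, 0 of 4 were DEGs between KO_PBS and WT_PBS. Plin2, which coats lipid droplets, was at 38.3, 33.8, 34.0 and 33.9 CPM in WT_PBS and 42.1, 33.8, 37.6 and 46.7 CPM in KO_PBS, and the log2FC was 0.19 ± 0.11 (SE; edgeR adjusted P = 0.277). Pnpla2, the adipose triglyceride lipase ATGL, was at 249, 202, 354 and 242 CPM in WT_PBS and 285, 315, 318 and 257 CPM in KO_PBS (log2FC 0.17 ± 0.13 SE; edgeR adjusted P = 0.463). In both genes the groups overlapped, for Pnpla2 through WT_PBS replicate 3, and without that sample Pnpla2 was called (log2FC 0.35, edgeR adjusted P = 0.0492), whereas without WT_PBS replicate 2, the lowest, its log2FC was 0.060 (edgeR adjusted P = 0.825). Lipe, hormone-sensitive lipase, had a log2FC of -0.04, and Plin5, which tethers droplets to mitochondria, -0.17.

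Of the 6 regulators, fuel switch and uncoupling proteins, Ucp2 came nearest to a call. It was at 15.3, 14.1, 19.7 and 16.9 CPM in WT_PBS and 26.6, 24.4, 20.7 and 26.9 CPM in KO_PBS, so all KO_PBS samples were above all WT_PBS samples. The log2FC was 0.58 ± 0.22 (SE; edgeR adjusted P = 0.0940). It was called in 5 of 23 alternative settings, among them limma-voom, where Ucp2 and Angptl4 were the members called, and the fit without KO_ASO replicate 4. The adjusted P value over these settings ran from 0.0122 to 0.225. Ucp2 is also expressed by macrophages, whose markers were higher in KO_PBS as given above. Ucp3, the uncoupling protein of skeletal muscle, whose gene ends 6904 bases before Ucp2 begins on chromosome 7, was at 299 ± 80.0 CPM in WT_PBS and 286 ± 70.9 CPM in KO_PBS (SD, n = 4), a log2FC of -0.07.

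Pdk4 was at 920.0, 649, 1132 and 1369 CPM in WT_PBS and 1799, 2255, 975 and 1661 CPM in KO_PBS. KO_PBS replicate 3 lay within the WT_PBS range and the other KO_PBS samples above it. The log2FC was 0.72 ± 0.33 (SE; edgeR adjusted P = 0.168), and no alternative setting called it. Ppargc1a, which encodes PGC-1α, was at 37.1, 36.3, 41.3 and 51.5 CPM in WT_PBS and 51.1, 46.2, 37.6 and 53.8 CPM in KO_PBS (log2FC 0.18 ± 0.18 SE; edgeR adjusted P = 0.557). Ppara was at 10.6, 5.25, 16.03 and 7.77 CPM in WT_PBS and 9.65, 9.55, 7.46 and 6.04 CPM in KO_PBS (log2FC -0.29 ± 0.30 SE; edgeR adjusted P = 0.584), and without WT_PBS replicate 3 its log2FC was 0.05. Ppard, which encodes PPARδ, was at 33.6 ± 2.23 and 32.7 ± 3.02 CPM (SD, n = 4).

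**Figure D4:**
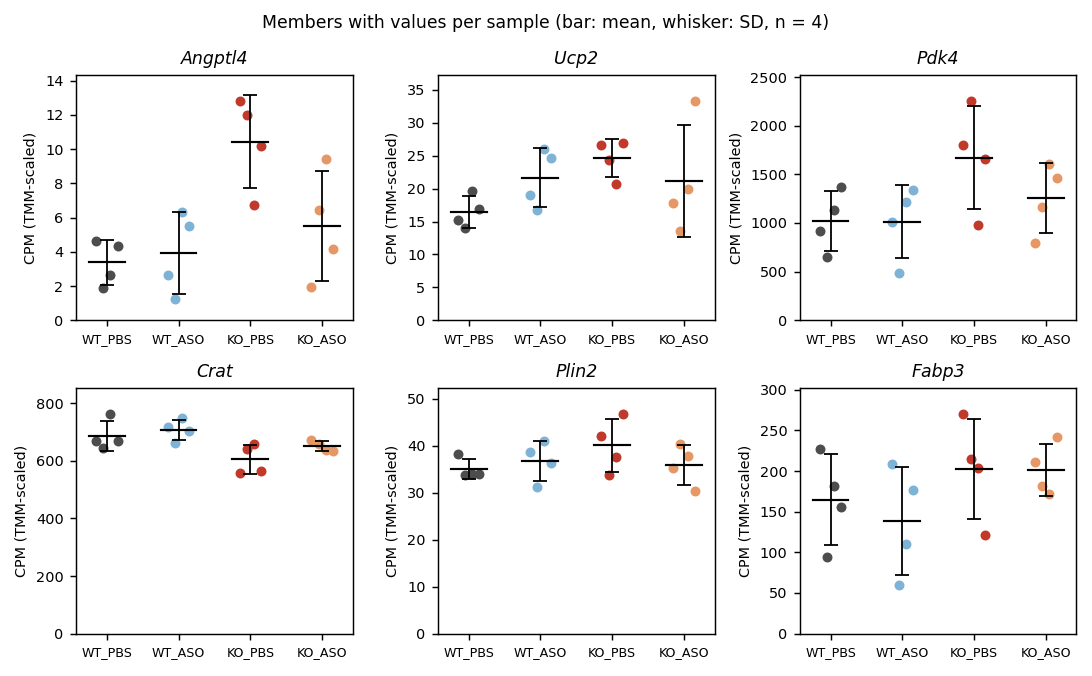
CPM of Angptl4, Ucp2, Pdk4, Crat, Plin2 and Fabp3 in each sample of the 4 groups (points), with the mean (bar) and SD (whisker, n = 4). The KO_PBS points of Angptl4, from 6.73 to 12.8 CPM, lie above all WT_PBS points, those of Ucp2 do too, and the groups overlap for the other 4 genes.

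PPARs bind DNA with RXR at a direct repeat of the hexamer AGGTCA with 1 base between, and the promoters of the members were searched for it in RefSeq sequences of GRCm38.p6, from 250 bases before to 50 bases after the start of the gene. Of the 37 members 31 had an entry, and Lpl, Angptl4, Cpt1b, Crat, Acaa2 and Decr1 did not. The repeat (AGGTCA, any base, AGGTCA), read on both strands with at most 2 mismatches in its 12 fixed letters, was found in 5 of the 31 (16.1%) and in 4.40% of 27025 genes. The single hexamer AGGTCA, which lies within the repeat, was found without mismatch in 7 of the 31 (22.6%) and in 18.1% of all genes, and the estrogen-related receptor element TNAAGGTCA in 0 of the 31 and 1.43% of all genes. The windows below are those with the repeat upstream of the start, shown because they are what these promoters share with the PPAR motif; the repeat is in capitals, each is written 5′ to 3′ on the strand of the gene, and every match has 2 mismatches. The match in Slc25a20 lies after the start and is not printed.
Ucp3 (chr7:100472920-100472972, + strand): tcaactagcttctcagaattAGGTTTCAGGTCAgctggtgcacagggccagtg
Cd36 (chr5:17835927-17835979, - strand): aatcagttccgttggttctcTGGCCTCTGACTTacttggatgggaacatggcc
Etfa (chr9:55512288-55512340, - strand): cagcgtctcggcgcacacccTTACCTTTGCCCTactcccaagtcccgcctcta
Plin2 (chr4:86670252-86670304, - strand): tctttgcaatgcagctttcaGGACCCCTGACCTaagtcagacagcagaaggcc

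In Cd36, Etfa and Plin2 the repeat reads on the strand opposite to the gene, and in Ucp3 on the same strand. The matches begin 51 bases before the start in Ucp3, 63 in Cd36, 77 in Etfa and 225 in Plin2. In GENCODE the Cd36 window lies in an intron of the gene, upstream of an internal start, the Ucp3 window in an intron of Gm10603 on the other strand, and the windows of Etfa and Plin2 between genes. The log2FC of the 4 genes between KO_PBS and WT_PBS were -0.07 for Ucp3, -0.06 for Cd36, 0.07 for Etfa and 0.19 for Plin2, and none was called. A match is a description of the letters and shows no binding.

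The oligonucleotide was compared with saline in each genotype. Between KO_ASO and KO_PBS, 0 of the 37 members were DEGs by edgeR, against 3.64% of all genes (0.802% higher and 2.83% lower), and 0 had an unadjusted P value under 0.05, against 17.7%. DESeq2 and limma-voom also called 0, against 7.06% and 7.93% of all genes. The median log2FC of the members was 0.08, beside 0.01 for all genes, with 24 positive and 13 negative values, from -0.93 for Angptl4 to 0.26 for Lpl. With library totals the medians were -0.01 and -0.08, with 17 positive and 20 negative values, so the median of the members lay slightly above that of all genes on both scales. Of 10 endothelial markers 9 were positive in this comparison (median 0.29, 0 called, 3 at an unadjusted P value under 0.05), and of 10 skeletal muscle markers 9 were (median 0.25, 0 called, 3 at that value). The macrophage markers were lower, as given at the end. The part of these markers in the members' values was not tested. The interval lay within 2-fold for 35 members and within 1.5-fold for 26. Decr1, the dienoyl-CoA reductase, was the 1 member whose groups did not overlap, against 10.4% of all genes, at 162, 164, 156 and 129 CPM in KO_PBS and 184, 167, 167 and 193 CPM in KO_ASO (log2FC 0.22, edgeR adjusted P = 0.399). Pdk4 in KO_ASO was at 791, 1163, 1609.9 and 1460.2 CPM (log2FC -0.41 against KO_PBS, edgeR adjusted P = 0.569) and Ucp2 at 17.8, 13.6, 19.97 and 33.3 CPM (log2FC -0.22, edgeR adjusted P = 0.675), and both overlapped with WT_PBS and with KO_PBS. With a sample left out the log2FC of Pdk4 ran from -0.60 to -0.24, called in 0 of these fits. The value of Ucp2 rested on single samples: it was -0.53 (edgeR adjusted P = 0.0825) without KO_ASO replicate 4, the highest of the group, -0.067 without KO_ASO replicate 2 and -0.14 without KO_ASO replicate 1.

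Between WT_ASO and WT_PBS, 0 members were DEGs by edgeR, DESeq2 or limma-voom, against 0.00668% of all genes by edgeR and by limma-voom and 0.221% by DESeq2, and 0 had an unadjusted P value under 0.05, against 6.45%. The median log2FC was -0.06, beside 0.0040 for all genes, with 11 positive and 26 negative values, from -0.52 for Ppara to 0.39 for Ucp2. All 8 genes of the spiral had a negative log2FC, from -0.10 to -0.02, and all 8 intervals lay within 1.5-fold. Endothelial markers were negative for 9 of 10 (median -0.20) and adipocyte markers positive for 6 of 6 (median 1.42), with 0 called in either list. Macrophage markers were positive for 15 of 15 (median 0.48) and skeletal muscle markers for 8 of 10 (median 0.21), again with 0 called. The part of these markers in the values of Ucp2 and the other members was not tested. Of the members 0 had groups that did not overlap, against 3.22% of all genes.

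The treated Bin1mck-/- samples were also set against each wild-type group. Between KO_ASO and WT_PBS, 0 members were DEGs, against 0.0401% of all genes, 0 had an unadjusted P value under 0.05, against 8.22%, and 0 had groups that did not overlap, against 5.39%. The median log2FC was 0.06, from -0.32 for Ppara to 0.69 for Angptl4. All 8 slow fibre markers were positive (median 1.53, 0 called, 4 at an unadjusted P value under 0.05). Between KO_ASO and WT_ASO, 0 members were DEGs, against 0.0735% of all genes, 1 had an unadjusted P value under 0.05, against 15.1%, which was Cd36 with a log2FC of 0.39 (edgeR adjusted P = 0.319), and 0 had groups that did not overlap, against 6.97%. The median log2FC there was 0.12, beside 0.0033 for all genes, with 28 positive and 9 negative values, and with library totals 0.21 beside 0.11, with 34 and 3. In the same comparison 8 of 10 endothelial markers were positive (median 0.31, 0 called, 3 at an unadjusted P value under 0.05). All 8 slow fibre markers were positive (median 1.15, 0 called, 3 at that value). Of 10 skeletal muscle markers 8 were negative (median -0.33, 0 called, 5 at that value). The part of these 3 lists in the values of Cd36 and the other members was not tested. DESeq2 also called 0 members in both of these comparisons, against 0.635% of all genes with WT_PBS and 2.82% with WT_ASO, and so did limma-voom, against 0.0334% and 0.0134%.

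Whether the oligonucleotide acted differently in the 2 genotypes was tested as the interaction, the log2FC in Bin1mck-/- minus that in wild type. It called 0 members by edgeR, DESeq2 or limma-voom, against 0.575%, 2.57% and 0.695% of all genes in that order, and 0 had an unadjusted P value under 0.05, against 12.7%. The values ran from -1.14 for Angptl4 (edgeR adjusted P = 0.537) to 0.48 for Ppara, with a median of 0.15, beside 0.0041 for all genes, and 29 positive values, and with library totals the medians were 0.096 and -0.04. Of 10 endothelial markers 9 were positive (median 0.50, 0 called, 5 at an unadjusted P value under 0.05), all 15 macrophage markers were negative (median -2.12, 3 called) and all 6 adipocyte markers were negative (median -1.93, 0 called). Their part in the members' values was not tested. The interval stayed within 2-fold for 29 members, and for the rest it reached beyond.

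To see whether neighbouring genes of fatty acid metabolism behaved like the members, 108 further genes in 5 lists were read, of which 105 were tested. Between KO_PBS and WT_PBS 12 were DEGs (11.4%), against 12.6% of all genes. The wider regulators held 6 of them among 23 genes, 2 higher and 4 lower, and were the list with the most. The list named wider mitochondrial oxidation, in which the peroxisomal enzymes Crot and Nudt7 were also placed, held 3 of 27, of which 2 were higher and the 1 lower was Crot. Of the other lists, fatty acid synthesis held 2 of 15, both lower, peroxisomal oxidation 1 of 16, lower, and wider uptake, triglyceride synthesis and droplets 0 of 24, where 6 had an unadjusted P value under 0.05, against 27.3% of all genes. The medians of the log2FC were -0.15, -0.05, 0.13, -0.03 and -0.09 in that order.

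The regulators held 4 subunits of AMP-activated protein kinase, the energy sensor of the cell, of which 1 rose, 1 fell and 2 did not pass the test. Prkaa1, the catalytic subunit α1, was at 15.4, 18.3, 15.4 and 18.5 CPM in WT_PBS and rose to 36.6, 30.7, 28.0 and 33.3 CPM in KO_PBS (log2FC 0.93 ± 0.10 SE; edgeR adjusted P = 2.6e-05). Prkab2, the regulatory subunit β2, was at 428, 713, 519.6 and 662 CPM and fell to 206, 287, 295 and 404 CPM (log2FC -0.96 ± 0.20 SE; edgeR adjusted P = 0.00470). The groups did not overlap for either gene. Prkaa2, the catalytic subunit α2, was at 269.8 ± 52.2 CPM in WT_PBS and 214 ± 31.7 CPM in KO_PBS (log2FC -0.33; edgeR adjusted P = 0.178), and Prkag3, the regulatory subunit γ3, at 166 ± 42.8 and 131 ± 32.9 CPM (SD, n = 4; log2FC -0.33; edgeR adjusted P = 0.337); both are named after their values were seen. Pdk3, a pyruvate dehydrogenase kinase like the member Pdk4, was at 1.02, 1.19, 1.32 and 1.003 CPM and rose to 5.46, 2.44, 2.95 and 2.84 CPM (log2FC 1.59 ± 0.28 SE; edgeR adjusted P = 0.00170). The other 3 regulators called, named here after their values were seen, were Rxrg and Rxra, partners of the PPARs, and the corepressor Ncor1, which fell with log2FC of -0.85, -0.54 and -0.35.

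Of the wider mitochondrial list, Acot9, a mitochondrial acyl-CoA thioesterase, was at 23.1, 24.8, 24.7 and 22.4 CPM in WT_PBS and rose to 48.2, 35.8, 35.3 and 44.8 CPM in KO_PBS (log2FC 0.79 ± 0.10 SE; edgeR adjusted P = 9.1e-05). Acad12, a member of the acyl-CoA dehydrogenase family, rose with a log2FC of 0.66. Crot, the carnitine octanoyltransferase, which works in peroxisomes although it stood in this list, fell with -0.49. Abcd2, which carries very long chain acyl-CoA into peroxisomes, fell with -0.43 (edgeR adjusted P = 0.0444). Of the synthesis list, Me1, the cytosolic malic enzyme, was at 147, 195, 125 and 159 CPM and fell to 58.4, 89.4, 77.5 and 106 CPM (log2FC -0.92 ± 0.19 SE; edgeR adjusted P = 0.00473). Acacb, the acetyl-CoA carboxylase whose malonyl-CoA inhibits CPT1, fell with -0.33 (edgeR adjusted P = 0.0432). Abcd2 and Acacb were called in 13 and 12 of 23 alternative settings.

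Between KO_ASO and KO_PBS, a comparison that shares the KO_PBS samples with the former, 4 of the 105 genes were DEGs, against 3.64% of all genes. Prkaa1 was at 18.3, 19.5, 19.8 and 19.8 CPM in KO_ASO (log2FC -0.73, edgeR adjusted P = 0.000965), and Pdk3, Acot9 and Me1 had log2FC of -1.21, -0.43 and 0.79 (edgeR adjusted P = 0.0245, 0.0234 and 0.0306). Of the 23 alternative settings Prkaa1 was called in 23, Pdk3 in 18, Acot9 in 17 and Me1 in 16, with adjusted P values up to 0.0956, 0.0766 and 0.0956 for the latter 3. All 3 calls were lost with the compared groups alone and without KO_PBS replicate 1 or KO_ASO replicates 1, 2 or 3, that of Acot9 also without KO_PBS replicate 4, and that of Me1 also without KO_PBS replicate 3 or without the filter. In the same comparison all 15 macrophage markers fell, 10 of them called, with a list median of -1.67, and their part in these values was not tested. Between KO_ASO and WT_PBS 0 of the 105 were DEGs, against 0.0401% of all genes. At an unadjusted P value under 0.05 were 2, 2, 1, 1 and 3 genes of the wider mitochondrial, peroxisomal, uptake, synthesis and regulator lists, against 8.22% of all genes.

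**Figure D5:**
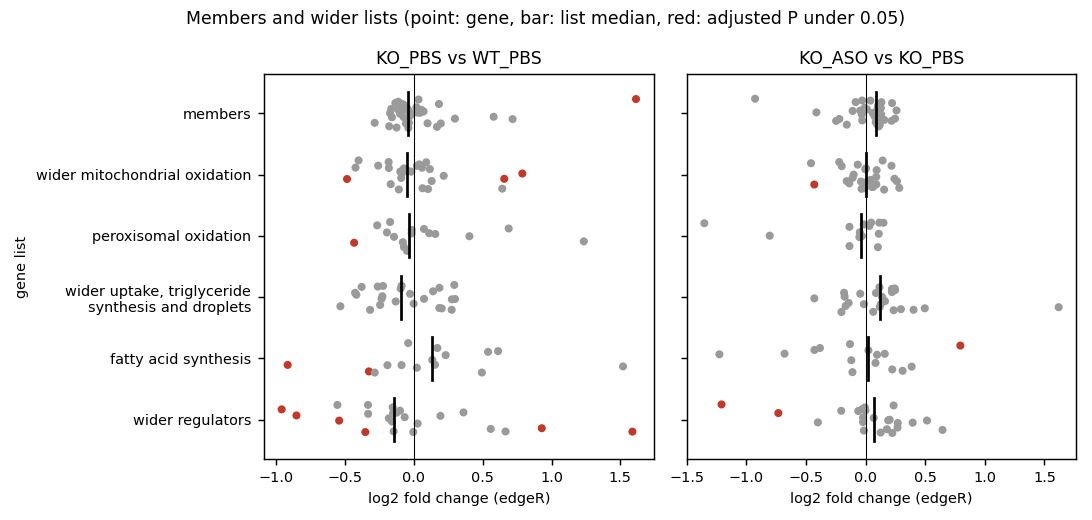
Log2 fold change of each gene (point) of the members and the 5 wider lists, with a bar at the list median and red for an edgeR adjusted P value under 0.05, for KO_PBS vs WT_PBS on the left and KO_ASO vs KO_PBS on the right. The members gather around a median of -0.04 on the left with 1 red point, and the wider regulators carry 6.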

How the data were processed

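RNA from 16 samples was extracted with TRI Reagent and sequenced from TruSeq Stranded mRNA libraries. The authors deposited raw counts per Ensembl gene, without normalization. STAR 2.5.3a, HTSeq 0.6.1p1, cutadapt 1.10, Bowtie2 2.2.8 and the build GRCm38 (mm10) are listed, without roles, in the submitters' processing notes. The annotation release is not given in the sources used here. Symbols, coordinates and merged exon lengths came from GENCODE M21, which matched all 29730 identifiers.

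Counts were tested with edgeR 4.0.16 in R 4.3.3 (filterByExpr, 14960 genes left; TMM; robust quasi-likelihood F test; 1 mean per group, all 16 samples), with Benjamini-Hochberg adjustment over all genes within a comparison. The common biological coefficient of variation was 18.7%. Alternatives were DESeq2 1.42.0, limma 3.58.1 (voom with quality weights), no filter, relative log expression scaling, library totals, the compared groups alone, the replicate number as a block and each sample left out. Samples of a group differed by a mean chi-square of at least 22.2 per gene, so none looked like a second copy of another.

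Members and lists were chosen with earlier results of these data known. Full values were given for members called in any comparison, filled to 12 by the smallest P value between KO_PBS and WT_PBS, and for at most 3 called genes per wider list.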

Additional observations from a re-analysis of the deposited data

Results flagged for a closer look

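Each of the 37 members was examined in each of the 4 groups, 148 groups of 4 samples in all, for a sample far from the others by Dixon's 95% critical value. Chance flags about 1 in 20 such groups, and 5 of the 148 were flagged. Acadvl and Hadha were low in KO_PBS replicate 4, at 486 CPM against 625 to 652 CPM and at 372 CPM against 456 to 469 CPM, in the sample where most genes of fatty acid oxidation were lowest. Cd36 was at 369.5 CPM in KO_PBS replicate 3 against 424 to 432 CPM in the others. Plin2 was at 38.3 CPM in WT_PBS replicate 1 against 33.8 to 34.0 CPM. Ppargc1a was at 71.3 CPM in KO_ASO replicate 2 against 40.7 to 44.3 CPM.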

How the results depend on the processing

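The count of members called between KO_PBS and WT_PBS was 1 and became 2 with limma-voom, with library totals and with the compared groups alone (Angptl4 and Ucp2 in each), 0 without the filter on low counts, where more genes are tested, and 0 to 2 with a sample left out. In the other 5 comparisons it was 0 under every alternative run. For the wider lists between KO_PBS and WT_PBS the count of 12 became 20 with the compared groups alone, where 2064 of all 14437 genes were called. It became 10 to 15 with a sample left out. Between KO_ASO and KO_PBS the count of 4 became 8 with DESeq2 and 12 with limma-voom, against 7.06% and 7.93% of all genes. With the compared groups alone it became 1, against 300 of all 14387 genes. It became 1 to 7 with a sample left out (1 without KO_PBS replicate 1 or KO_ASO replicate 3, 2 without KO_ASO replicate 1 or 2, 7 without KO_ASO replicate 4). The cause was not tested. Library totals moved the median of all genes from -0.01 to 0.14 between KO_PBS and WT_PBS and from 0.01 to -0.08 between KO_ASO and KO_PBS. Values near 0 crossed it with that shift. Positive and negative values of the members went from 15 and 22 to 32 and 5 in the former and from 24 and 13 to 17 and 20 in the latter. Among the genes given full values, Mlycd crossed (log2FC -0.13 to 0.022) in the former and Acacb (0.095 to -0.0026) in the latter, and relative to all genes neither turned. For Ppara between KO_PBS and WT_PBS the sign turned without WT_PBS replicate 3 (0.045; with a sample left out from -0.49 to 0.045). None of these 3 was called in either fit. The median member level was 38.2 to 39.2 CPM per kilobase with a sample left out. The DEGs over all genes between KO_PBS and WT_PBS numbered 1878 and ran from 1464 to 2723 over the methods and from 997 to 2137 with a sample left out, and with library totals they split into 1942 higher and 260 lower, against 1112 and 766. Between KO_ASO and KO_PBS 544 DEGs ran from 300 to 1186 and from 208 to 831.

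Of 24 pairs of samples with the same replicate number, 11 had deviations from their group means correlated above 0.1 (from -0.08 to 0.44). Pairing was accepted only if every pair passed that value, so the main fit has no block. As a hint from the data and not the design, 14 of 16 samples matched their own number best. With the replicate number as a block, 1 member was called between KO_PBS and WT_PBS, Ucp2 (edgeR adjusted P = 0.0371), while Angptl4 was at 0.0588. The wider lists then had 15 genes called between KO_PBS and WT_PBS and 6 between KO_ASO and KO_PBS, against 2322 and 752 of all 14960 genes. With 4 samples a group, the interval lay within 1.5-fold for 29 of the 37 members between KO_PBS and WT_PBS and for 10 in the interaction.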
